A study of Mus musculus with 12 samples.

Results

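The 37 genes carried by mouse mitochondrial DNA were followed in RNA-Seq counts of sorted oligodendrocytes, the myelin-forming cells of the CNS. They were taken as every entry of the count table whose symbol starts with mt-, which gave 37 of 55376 entries: 2 ribosomal RNA (rRNA) genes, 13 protein genes and 22 transfer RNA (tRNA) genes. All 37 were matched to the mitochondrial chromosome of GRCm38. Cells were pooled from 2 brains per sample of C57BL/6 mice at postnatal day 40 (P40), enriched over Percoll and sorted as live CD45- O1+ cells, O1 being a surface lipid of differentiating oligodendrocytes. There were 4 samples each of WT mice (replicates 1, 3, 5 and 6), of Cnp-Cre Jab1fl/fl mice (replicates 1, 2, 3 and 4) and of Cnp-Cre Jab1fl/fl p21CIP1-/- mice, called double mutants (replicates 1, 2, 3 and 5). The Cnp promoter drives Cre in late oligodendrocyte precursors and in oligodendrocytes, so that Jab1, a subunit of the COP9 signalosome, is deleted in that lineage, whereas the cell cycle inhibitor p21 is missing from all cells of the double mutants. The labels give the same strain for all samples; in the study's methods the p21CIP1-/- line is listed with another strain of origin and as backcrossed. Total counts ranged from 61485556 to 153495112 per sample, with a median of 103095817. The labels tell the samples apart by genotype and number only, so that p-values measure the spread between these samples.

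The targeted genes and the cell markers were read first. Cops5, the gene symbol of Jab1, had 46.3 to 133 CPM (counts scaled to the size of the library) in WT, 45.0 to 89.0 CPM in Cnp-Cre Jab1fl/fl and 44.2 to 90.4 CPM in double mutants, with no call between genotypes (edgeR adjusted p = 0.349 and 0.424 against WT). Cdkn1a, the gene of p21, had 16.0 to 85.3 CPM in WT, 379 to 637 CPM in Cnp-Cre Jab1fl/fl and 64.7 to 103 CPM in double mutants. Counts per gene do not show whether the reads fell into the deleted parts of these genes. Markers of mature oligodendrocytes (14 genes, such as Mbp and Mog) summed to 48398 to 113517 CPM in WT, 9389.8 to 36762 CPM in Cnp-Cre Jab1fl/fl and 17507 to 55744 CPM in double mutants, and 9 of the 14 were called lower in Cnp-Cre Jab1fl/fl than in WT, where 2.46% of all genes tested were called lower. Markers of other cells that such a sort could hold were present in every group, although the CD45- gate is set to remove microglia and leukocytes. For several types, markers were called higher in Cnp-Cre Jab1fl/fl than in WT, where 5.19% of all genes tested were called higher. None was called in double mutants against WT, where 0.175% and 0.0169% of all genes tested were called higher and lower. The summed microglial markers were nevertheless higher in every double mutant (458 to 21772 CPM) than in every WT sample (101 to 308 CPM). The marker values are given beside the mitochondrial share. In RNA from sorted pools, fewer cells of a type and less RNA per cell cannot be told apart.

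Mitochondrial DNA is a small circle that is transcribed from both strands into long precursors. The tRNA genes lie between most of the other genes, and cutting out the tRNAs releases the rRNAs and the mRNAs, most of which then receive a poly(A) tail. The 2 rRNAs, mt-Rnr1 and mt-Rnr2, build the small and the large subunit of the mitochondrial ribosome, the 22 tRNAs serve that ribosome, and the 13 proteins are core subunits of respiratory complexes I, III and IV and of ATP synthase. All other proteins of the organelle, including its RNA polymerase and the rest of the respiratory chain, come from nuclear genes. Oligodendrocytes make large amounts of myelin membrane and are known for a high metabolic demand. Of the 37 genes, 28 are annotated on the plus strand of the chromosome and 9 on the minus strand, namely mt-Nd6 and 8 tRNAs. The library kit does not mark strand, and the strand setting of the counting is not given in the sources used here, so that reads of one strand and of its complement cannot be told apart for any of these genes.

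The sequences that matter for reading the counts are those of the best-detected tRNAs and of stretches that also occur in nuclear chromosomes. The tRNA genes with the most counts, mt-Tq for glutamine, mt-Tp for proline and mt-Te for glutamate, all lie on the minus strand, at chrM:3772-3842, chrM:15356-15422 and chrM:14071-14139 of GRCm38. They are shown 5′ to 3′ from the GENCODE M21 transcripts, without the CCA end that is added after transcription, and the capitals mark the anticodon.
mt-Tq: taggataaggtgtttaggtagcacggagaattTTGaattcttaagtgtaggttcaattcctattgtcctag
mt-Tp: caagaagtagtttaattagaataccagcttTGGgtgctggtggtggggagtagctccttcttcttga
mt-Te: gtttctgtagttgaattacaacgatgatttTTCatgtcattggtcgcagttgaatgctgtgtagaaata

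Nuclear DNA holds inserted copies of mitochondrial DNA, and a read that matches both places equally cannot be assigned. Comparison of the M21 transcripts with blastn found 15 nuclear genes that match a mitochondrial gene over at least 200 bases with at least 90% identity. Of these, 7 form 1 block on chromosome 1 that follows the mitochondrial order from chrM:6390-11042, at chr1:24611535-24616188 on the minus strand; 5 of the 7 were identical to the mitochondrial gene over the aligned length, and the lowest identity was 99.71%. The block holds mt-Co2, mt-Atp6, mt-Co3, mt-Nd3 and mt-Nd4l whole, mt-Atp8 by its position between them, the end of mt-Co1, the start of mt-Nd4 and 5 tRNA genes. The other copies are less alike, such as Gm13340 on chromosome 2 with 97.605% identity to mt-Co1 and Gm11410 on chromosome 4 with 92.907% identity to mt-Cytb. Windows of 60 bases from 3 pairs show this range, and the capitals mark bases that differ within a pair. The pair on chromosome 1 has 0 differences, that on chromosome 2 has 2 and that on chromosome 4 has 3; the mitochondrial windows are chrM:8607-8666, chrM:5328-5387 and chrM:14146-14205, and the nuclear ones chr1:24613912-24613971 (minus strand), chr2:22589588-22589647 (minus strand) and chr4:80003990-80004049 (plus strand).
mt-Co3: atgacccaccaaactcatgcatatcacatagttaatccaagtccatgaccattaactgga
Gm28437: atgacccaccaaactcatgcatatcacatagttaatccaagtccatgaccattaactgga
mt-Co1: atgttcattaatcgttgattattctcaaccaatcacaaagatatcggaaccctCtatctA
Gm13340: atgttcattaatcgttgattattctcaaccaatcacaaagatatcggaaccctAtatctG
mt-Cytb: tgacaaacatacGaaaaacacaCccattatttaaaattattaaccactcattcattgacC
Gm11410: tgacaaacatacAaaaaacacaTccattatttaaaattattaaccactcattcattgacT

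Levels per length stepped down inside this block. Levels are CPM, scaled with TMM factors over the 12 samples, divided by the gene length in kilobases. In WT the highest level was that of mt-Cytb, a subunit of complex III, at 5614 ± 1448 CPM per kilobase (mean ± SD, n = 4), followed by mt-Rnr2 at 4199 ± 2435, mt-Nd1 at 3772 ± 1036 and mt-Co1 at 2773 ± 573. The order of these genes is not fixed, since the level of mt-Rnr2 varied more between the samples than the gaps between the 4 means. Next came mt-Nd4, mt-Nd2, mt-Rnr1, mt-Nd6 and mt-Nd5, with means of 1232 to 571 CPM per kilobase in that order. The 6 protein genes that lie whole in the chromosome 1 block were far below all of these, from 53.5 ± 27.0 for mt-Co3 down to 2.95 ± 0.591 for mt-Nd4l. The 7 other protein genes include mt-Co1 and mt-Nd4, which lie partly in the block. In each of the 12 samples the median level of the 7 was 29.5 to 53.6 times the median of the 6 whole genes. The lowest of the 7 was 6.27 to 17.2 times the highest of the 6. The plot of levels along the chromosome shows the step at both ends of the block in all 3 genotypes.

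**Figure D1:**
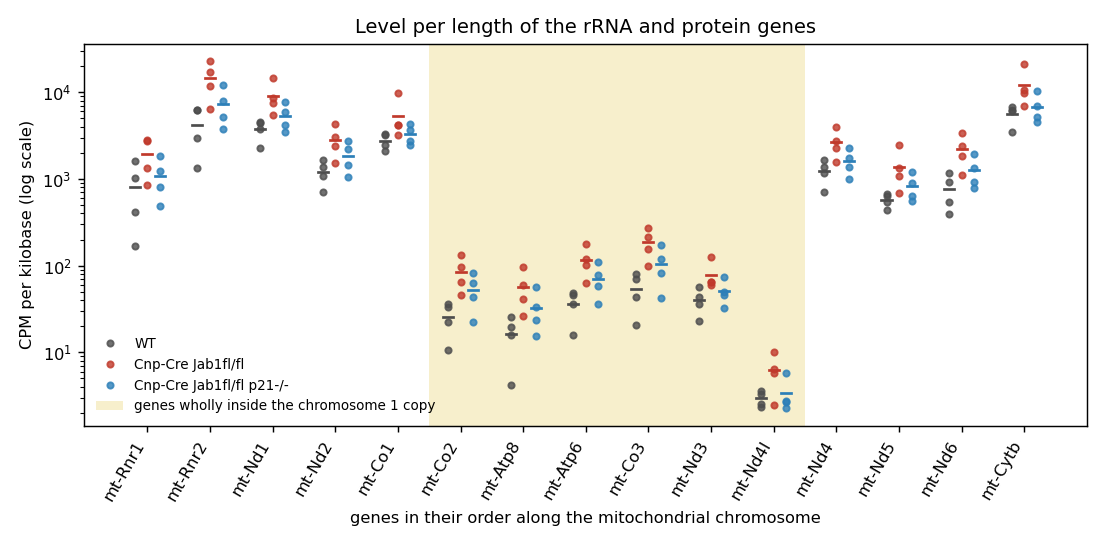
Level of the 2 rRNA and 13 protein genes in CPM per kilobase (log scale), in their order along the mitochondrial chromosome, with 1 point per sample and a bar at the mean of each genotype (n = 4). The 6 genes wholly inside the chromosome 1 copy (shaded) lie below the other 9 genes in every genotype.

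Of these 6 genes, 5 had a nuclear partner among the genes found, mt-Atp8 being placed by position only. Per sample, the median ratio of copy to mitochondrial counts was 1.08 for Gm28661 and mt-Co2, 1.33 for Gm10925 and mt-Atp6, 1.60 for Gm28437 and mt-Co3, 0.244 for Gm28438 and mt-Nd3, and 4.94 for Gm10222 and mt-Nd4l. For genes not wholly inside the block the ratios were far smaller, with 0.0136 for Gm13340 and mt-Co1 and 3.53e-04 for Gm11410 and mt-Cytb. The 15 copies together held 0.781% to 1.48% of the counts of the 37 mitochondrial genes. Whether reads with several matches were discarded, split or counted is not given in the sources used here, and the part of shared sequence in the levels of mt-Co2, mt-Atp8, mt-Atp6, mt-Co3, mt-Nd3 and mt-Nd4l was not tested. Their levels are therefore uncertain.

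The first question was how much of each library was mitochondrially encoded RNA. The share of all counts in the 37 genes was 3.18, 1.46, 2.17 and 3.41% in WT replicates 1, 3, 5 and 6, with a mean of 2.56% ± 0.905 (SD, n = 4). It was 10.1, 3.76, 5.91 and 7.01% in Cnp-Cre Jab1fl/fl replicates 1 to 4, with a mean of 6.68% ± 2.62 (SD, n = 4). All 4 Cnp-Cre Jab1fl/fl samples lay above all 4 WT samples, with a gap of less than 1 point between the nearest samples, and the mean was 2.62-fold higher, a difference of 4.13 percentage points. In double mutants the share was 3.24, 2.50, 5.08 and 3.75% in replicates 1, 2, 3 and 5, with a mean of 3.64% ± 1.09 (SD, n = 4). This range overlapped both other genotypes, with a mean 1.09 points above WT and 3.04 points below Cnp-Cre Jab1fl/fl. Without replicate 1, the highest of the Cnp-Cre Jab1fl/fl samples, the difference from WT was 3.01 points, and double mutants minus Cnp-Cre Jab1fl/fl was -1.92 points. Without double mutant replicate 3 the mean was 0.608 points above WT. No p is given for the share, since it is a sum over the genes.

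**Figure D2:**
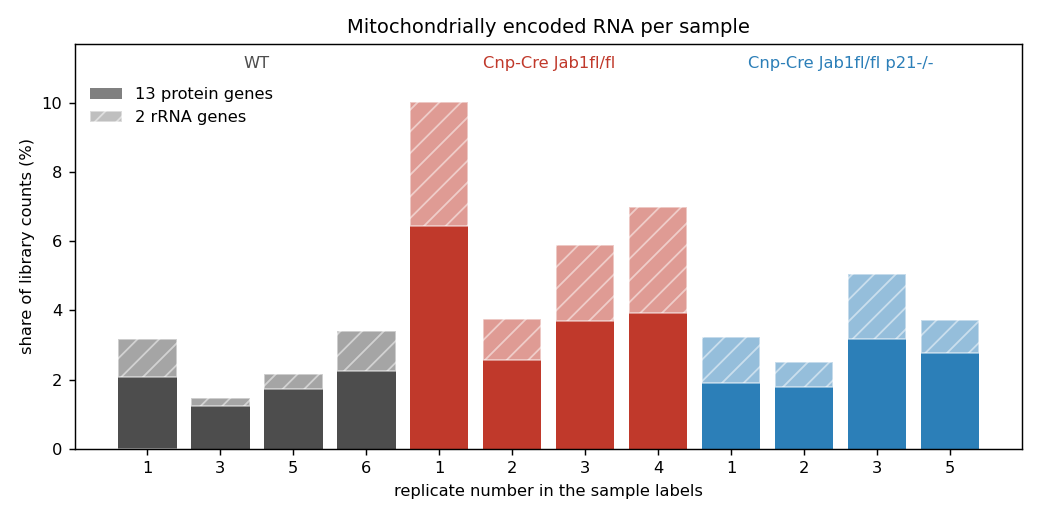
Share of library counts (%) in the 13 protein genes (solid) and the 2 rRNA genes (hatched), stacked, with 1 bar per sample. The 22 tRNA genes, at most 0.0291% of a library, are too small to draw; the 4 Cnp-Cre Jab1fl/fl bars stand between 3.76% and 10.1%, above the 4 WT bars at 1.46% to 3.41%.

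All 3 kinds of genes had a higher share in Cnp-Cre Jab1fl/fl, by unequal folds. In the order of the replicates, the 2 rRNA genes held 1.09, 0.232, 0.444 and 1.15% of the counts in WT and 3.57, 1.18, 2.19 and 3.06% in Cnp-Cre Jab1fl/fl. Double mutants had 1.34, 0.707, 1.88 and 0.945%. The mean in Cnp-Cre Jab1fl/fl was 3.43-fold that of WT, and the 2 genotypes did not overlap, although the lowest Cnp-Cre Jab1fl/fl value was barely above the highest WT value. The 13 protein genes held 1.23% to 2.25% of WT counts. They held 2.57% to 6.45% in Cnp-Cre Jab1fl/fl, where the mean was 2.28-fold higher, and 1.79% to 3.17% in double mutants. The share of the 22 tRNA genes was the smallest, with a mean of 0.00342% ± 0.00222 in WT, 0.0200% ± 0.00780 in Cnp-Cre Jab1fl/fl and 0.0146% ± 0.0110 in double mutants (SD, n = 4 each). For the tRNAs, too, the Cnp-Cre Jab1fl/fl samples all lay above the WT samples, whereas double mutants overlapped both.

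Several signs of sample make-up also differed between the genotypes. Beside the lower oligodendrocyte markers, the summed markers of microglia (15 genes) were 101 to 308 CPM in WT, 1224 to 3227 CPM in Cnp-Cre Jab1fl/fl and 458 to 21772 CPM in double mutants, where replicate 3 held the highest value. In Cnp-Cre Jab1fl/fl against WT, edgeR called 15 of the 15 microglial markers higher, 5 of 9 endothelial and 4 of 8 pericyte and smooth muscle markers. It also called 2 of 9 choroid plexus and ependyma and 1 of 8 progenitor markers higher. It called 0 of 10 astrocyte, 11 tested neuronal and 7 erythroid markers higher. Of the 12 leukocyte markers only 1 could be tested, and it was not called. By the same rule edgeR called 5.19% of all genes tested higher. In double mutants against WT it called 0 of the tested markers of each cell type in either direction (0.175% of all genes tested were called higher and 0.0169% lower). Markers of choroid plexus and ependyma (9 genes) were 314 to 4121 CPM, 6512 to 24621 CPM and 5429 to 24037 CPM in the same order, and those of erythroid cells (7 genes, globins among them) were 882 to 10889 CPM, 5205 to 88040 CPM and 4310.2 to 22111 CPM. The highest erythroid value was that of Cnp-Cre Jab1fl/fl replicate 1, the sample with the highest mitochondrial share. Among the double mutants, replicate 2 had the highest erythroid value and the lowest share (2.50%). Double mutant replicate 3, with the highest share of that genotype (5.08%), had 6156 CPM of erythroid markers. Endothelial markers (9 genes) were 328 to 714 CPM, 742 to 5164 CPM and 633 to 4849 CPM. In Cnp-Cre Jab1fl/fl they were highest in replicate 1 and lowest in replicate 2, the samples with the highest and the lowest share. In double mutants they were highest in replicate 5, with 3016 CPM in replicate 3. Markers of pericytes and smooth muscle (8 genes) were 277 to 477 CPM, 969 to 1721 CPM and 294 to 1657 CPM. Neuronal markers (12 genes) were 174 to 274 CPM, 263 to 773 CPM and 252 to 765 CPM. Astrocyte markers (10 genes) were 5695 to 14630 CPM in WT, 3744 to 9053 CPM in Cnp-Cre Jab1fl/fl and 4064 to 11638 CPM in double mutants, and markers of oligodendrocyte progenitors (8 genes) were 409.7 to 1073 CPM, 429 to 719 CPM and 336 to 729 CPM. Markers of lymphocytes, neutrophils and monocytes (12 genes) stayed at 0.633 to 2.13 CPM in WT, 3.41 to 18.0 CPM in Cnp-Cre Jab1fl/fl and 2.95 to 103 CPM in double mutants, and 7 of the 12 were at or under 3 counts in every WT sample. Among long noncoding RNAs, Malat1 overlapped across genotypes at 22758 to 65089 CPM in WT, 23479.8 to 62506 CPM in Cnp-Cre Jab1fl/fl and 22452 to 52759.6 CPM in double mutants, as did Neat1 at 527 to 728 CPM, 580.5 to 807 CPM and 226 to 1807 CPM. Meg3 was higher without overlap in Cnp-Cre Jab1fl/fl, at 63.1 to 159 CPM beside 10.6 to 22.8 CPM in WT, and was 10.7 to 97.8 CPM in double mutants. The noncoding genes Gm42418 and Gm26917 had higher means in Cnp-Cre Jab1fl/fl with overlapping samples, at 601 ± 224 CPM beside 219 ± 128 CPM in WT and 433 ± 143 CPM in double mutants for Gm42418, and at 2025 ± 899 CPM beside 1158 ± 578 CPM and 1743 ± 473 CPM for Gm26917 (SD, n = 4 each). The part of other cells or of RNA quality in the mitochondrial share was not tested.

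Each gene was then tested with edgeR on the 8 samples of a comparison, over the 17716 genes that reached 1 CPM in 4 or more samples of the 12. Of the 37 mitochondrial genes, 25 passed this filter: both rRNA genes, the 13 protein genes and 10 of the 22 tRNA genes. In Cnp-Cre Jab1fl/fl against WT, 5 of the 25 were called higher at an adjusted p below 0.05 and 0 lower, where 5.19% of all genes tested were called higher and 2.46% lower. The called genes were mt-Co2, mt-Co3 and mt-Atp6, all inside the chromosome 1 block, and the tRNA genes mt-Tp and mt-Tq. At an unadjusted p below 0.05, 17 of the 25 were higher and 0 lower (13.2% and 9.3% of all genes tested), and DESeq2 called 13 of the 25 higher and 0 lower (9.52% and 5.66% of all genes tested). The samples did not overlap for 16 of the 25, all higher in the mutant (9.9% of all genes tested were higher without overlap and 7.24% lower). Without Cnp-Cre Jab1fl/fl replicate 1, or replicate 3, or replicate 4, or WT replicate 5, edgeR called 0 of the 25. It called 1 without WT replicate 1 or 6, 2 without WT replicate 3, and 10 without Cnp-Cre Jab1fl/fl replicate 2. Over all genes tested, the number called higher was 919 with all 8 samples, 504 to 626 without any 1 of the other 7, and 1196 without Cnp-Cre Jab1fl/fl replicate 2. The 25 fitted changes were all above 0 (51.0% of all genes tested were above and 49.0% below), with a median log2 fold change of 1.73 beside 0.02 over all genes tested. Counts and medians over the 25 are a description, since some of the tRNA genes passed the filter through the mutant samples alone.

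The rRNA genes differed from each other in how far they could be told from WT. The level of mt-Rnr2, the rRNA of the large ribosomal subunit at chrM:1094-2675, was 9914, 2139, 4729.6 and 9786 CPM in WT, 35958, 10084, 18560.4 and 27006 CPM in Cnp-Cre Jab1fl/fl and 12499, 6024, 19366 and 8286 CPM in double mutants. Every Cnp-Cre Jab1fl/fl sample was above every WT sample, the lowest of them only slightly, and WT replicates 3 and 5 were well below the other WT samples. The fitted log2 fold change was 1.79 ± 0.56 (SE, edgeR adjusted p = 0.0781), which missed the threshold by edgeR, while DESeq2 called the gene higher (DESeq2 adjusted p = 0.00204). The rRNA of the small subunit, mt-Rnr1 at chrM:70-1024, was 974, 159.9, 400.5 and 1545 CPM in WT and 2721, 806, 1279.8 and 2588 CPM in Cnp-Cre Jab1fl/fl. These ranges overlapped, with WT replicate 6 above 2 of the 4 mutant samples, and the log2 fold change was 1.26 ± 0.63 (SE, edgeR adjusted p = 0.269), without a call by DESeq2 either (DESeq2 adjusted p = 0.106).

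Complex I, or NADH dehydrogenase, takes electrons from NADH, and its 7 mitochondrially encoded subunits form the core of its proton-pumping membrane arm. In Cnp-Cre Jab1fl/fl against WT, 0 of the 7 genes passed the threshold by edgeR, 6 had an unadjusted p below 0.05, and DESeq2 called 5 higher (mt-Nd1, mt-Nd2, mt-Nd4, mt-Nd5 and mt-Nd6), where 5.19%, 13.2% and 9.52% of all genes tested were higher by these measures. The level of mt-Nd1 (chrM:2751-3707) was 4222, 2202, 3636 and 4381 CPM in WT and 14115, 5179, 7244 and 8315 CPM in Cnp-Cre Jab1fl/fl, without overlap, with a log2 fold change of 1.27 ± 0.40 (SE, edgeR adjusted p = 0.0819). The level of mt-Nd5 (chrM:11742-13565) was 1235, 794, 982 and 1153 CPM and 4434, 1257, 1961 and 2465 CPM, again without overlap, with 1.28 ± 0.40 (SE, edgeR adjusted p = 0.0800). For mt-Nd6 (chrM:13552-14070), the protein gene of the minus strand, the levels were 610.5, 203, 279 and 481 CPM and 1777, 581, 964 and 1249 CPM, and replicate 2 of the mutant was below WT replicate 1. Its log2 fold change of 1.54 ± 0.44 (SE, edgeR adjusted p = 0.0586) was the largest among the complex I genes and came closest to the threshold. The log2 fold changes of mt-Nd2 and mt-Nd4 were 1.22 ± 0.40 and 1.10 ± 0.39 (SE, edgeR adjusted p = 0.0943 and 0.119), both with overlapping samples. Of the genes inside the chromosome 1 block, mt-Nd3 had 0.99 ± 0.41 and mt-Nd4l 1.08 ± 0.90 (SE, edgeR adjusted p = 0.176 and 0.535), the latter from levels of 0.698 to 3.03 CPM in the 8 samples. The annotated ends of mt-Nd5 and mt-Nd6 overlap by 14 bases on opposite strands, and those of mt-Nd4l and mt-Nd4 by 7 bases on the same strand.

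Complexes III and IV pass electrons from ubiquinol to cytochrome c and from there to oxygen. The level of mt-Cytb (chrM:14145-15288), the one mitochondrially encoded subunit of complex III, was 6893, 3988, 7126 and 7684 CPM in WT and 24051, 7863, 11069 and 12243 CPM in Cnp-Cre Jab1fl/fl. Replicate 1 of the mutant was far above the other samples, the lowest mutant value was just above the highest WT value, and the log2 fold change was 1.10 ± 0.42 (SE, edgeR adjusted p = 0.145), with a call by DESeq2 alone (DESeq2 adjusted p = 0.0261). In complex IV, mt-Co1 (chrM:5328-6872), which holds the site where oxygen is reduced, had the smallest change of all 25 genes, 0.95 ± 0.41 (SE, edgeR adjusted p = 0.201). Its levels of 3795, 3284, 5056 and 4999 CPM in WT and 15180.1, 5015, 6388 and 6431 CPM in Cnp-Cre Jab1fl/fl overlapped, and again replicate 1 of the mutant stood apart. The other complex IV subunits were called higher. The level of mt-Co2 (chrM:7013-7696), which receives the electrons of cytochrome c, was 24.6, 7.18, 15.4 and 22.6 CPM in WT and 89.7, 31.4, 44.6 and 66.0 CPM in Cnp-Cre Jab1fl/fl, a log2 fold change of 1.73 ± 0.45 (SE, edgeR adjusted p = 0.0400). That of mt-Co3 (chrM:8607-9390) was 62.9, 16.1, 33.7 and 55.0 CPM and 215, 77.5, 122 and 169 CPM, a log2 fold change of 1.80 ± 0.45 (SE, edgeR adjusted p = 0.0356). For both genes all mutant samples were above all WT samples, and WT replicate 3 was the lowest.

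ATP synthase uses the proton gradient to make ATP, and mt-Atp6 and mt-Atp8 code for 2 of its membrane subunits, the former part of the proton channel. The level of mt-Atp6 (chrM:7927-8607) was 31.1, 10.8, 24.9 and 32.8 CPM in WT and 121, 42.8, 69.0 and 82.0 CPM in Cnp-Cre Jab1fl/fl, without overlap, and the gene was called higher with a log2 fold change of 1.66 ± 0.42 (SE, edgeR adjusted p = 0.0357). The level of mt-Atp8 (chrM:7766-7969), which shares 43 bases with mt-Atp6, was 4.04, 0.866, 3.22 and 5.18 CPM and 19.7, 5.29, 8.42 and 12.3 CPM, with 1.78 ± 0.68 (SE, edgeR adjusted p = 0.145). The 3 called protein genes all lie inside the chromosome 1 block, where the median log2 fold change of the 6 whole genes was 1.70. For the 7 other protein genes, of which mt-Co1 and mt-Nd4 lie partly in the block, the median was 1.22. Of the copies in the chromosome 1 block, Gm28661, Gm10925 and Gm29216 were called higher in the same comparison, with log2 fold changes of 1.64, 1.54 and 1.65 (edgeR adjusted p = 0.0425, 0.0356 and 0.0357). The less alike Gm13340 and Gm13341 were called too, with 1.65 and 1.73 (edgeR adjusted p = 0.0342 and 0.0485), where 5.19% of all genes tested were called higher. No other copy was called. Gm28437, the copy of mt-Co3, was short of the threshold with 1.45 (edgeR adjusted p = 0.0646). The mitochondrial genes and their copies cannot be told apart in these 6 genes, so that the calls of mt-Co2, mt-Co3 and mt-Atp6 rest on reads of uncertain origin.

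The tRNA genes had most of the largest fitted changes, and most of them had few counts. Of the 10 that passed the filter, 6 had no WT sample at 1 CPM and passed through the mutant samples alone, so that their direction was set in part by the filter, and counts or medians over them are a description only. The 5 with the highest mean counts, mt-Tq, mt-Tp, mt-Te, mt-Tc and mt-Ta, are all on the minus strand. The level of mt-Tq, which carries glutamine, was 20.0, 1.13, 10.9 and 34.6 CPM in WT and 216, 60.4, 97.1 and 150.0 CPM in Cnp-Cre Jab1fl/fl. All mutant samples were above all WT samples, WT replicate 3 was more than an order of magnitude below WT replicate 6, and the log2 fold change of 2.97 ± 0.78 (SE, edgeR adjusted p = 0.0423) was the largest of the 25 genes. The level of mt-Tp, which carries proline, was 15.8, 4.94, 15.4 and 14.5 CPM and 56.1, 30.8, 32.0 and 46.7 CPM, without overlap, with 1.71 ± 0.42 (SE, edgeR adjusted p = 0.0323). Both genes were called higher, and both had at least 1 CPM in all 12 samples. The glutamate tRNA mt-Te had 1.64, 0.388, 0.860 and 2.80 CPM in WT and 11.5, 4.08, 7.93 and 7.25 CPM in Cnp-Cre Jab1fl/fl, with 2.43 ± 0.79 (SE, edgeR adjusted p = 0.0889), which missed the threshold by edgeR and was called by DESeq2 (DESeq2 adjusted p = 0.0152). The cysteine tRNA mt-Tc and the alanine tRNA mt-Ta had log2 fold changes of 2.10 ± 0.96 and 2.65 ± 1.13 (SE, edgeR adjusted p = 0.223 and 0.193). For the remaining mt-Tv, mt-Tl1, mt-Ti, mt-Tm and mt-Tt, log2 fold changes ranged from 1.95 to 2.57 and edgeR adjusted p from 0.253 to 0.295. A count on a tRNA gene can come from the tRNA or from a longer transcript of either strand that runs through it, and these cannot be told apart here. Since the cDNA was poly(A)-primed, these counts are not read as levels of the finished tRNAs.

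**Figure D3:**
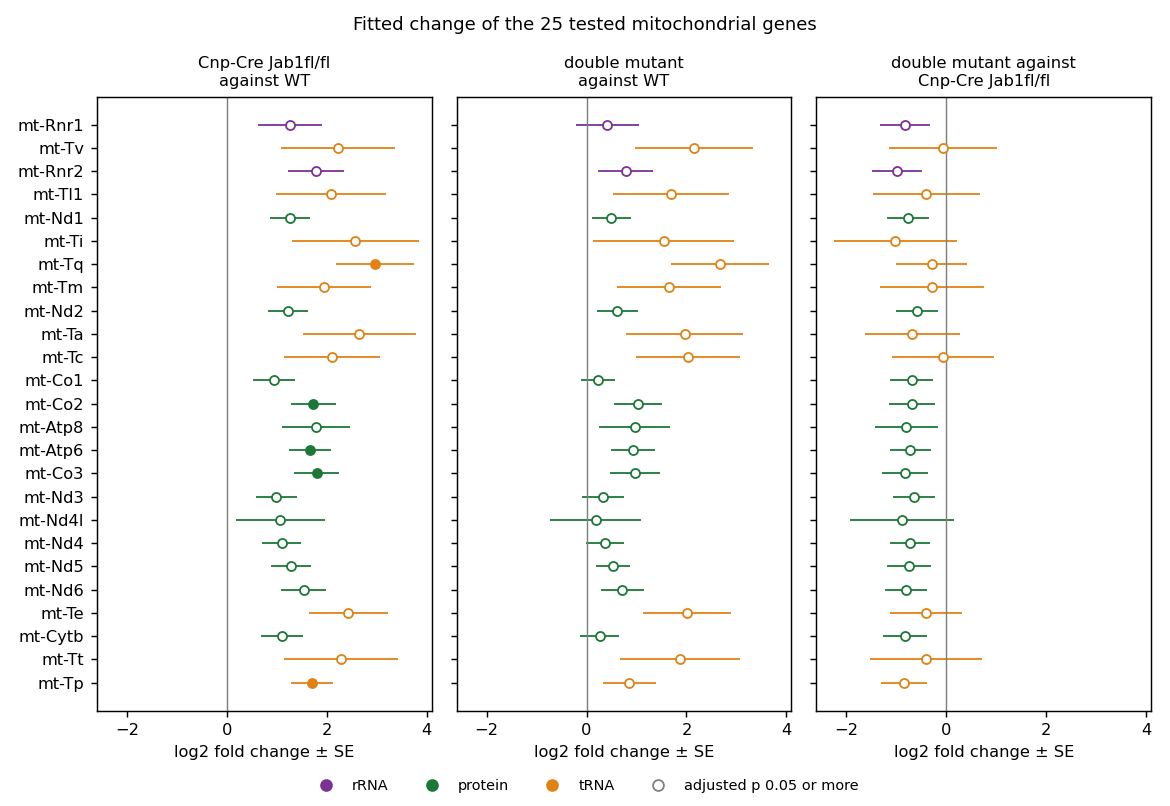
Fitted log2 fold change ± SE (edgeR, 8 samples per comparison) of the 25 tested mitochondrial genes in their order along the chromosome, in 3 comparisons; filled points passed an adjusted p of 0.05. In the first panel all 25 points are above 0 and 5 are filled (mt-Tq, mt-Co2, mt-Atp6, mt-Co3, mt-Tp); in the other panels 0 are filled.

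The 12 tRNA genes that did not pass the filter had very few counts. The highest value among them was 1.99 CPM, for the phenylalanine tRNA mt-Tf in Cnp-Cre Jab1fl/fl replicate 1. For mt-Tw, mt-Td, mt-Tk and mt-Tg no sample had more than 1 count, and mt-Tk, the lysine tRNA, had 0 counts in all 12 samples, which allows up to 3 counts in each. Of these, mt-Td, mt-Tk and mt-Tg lie inside the chromosome 1 block, as do mt-Ts1 and mt-Tr, which had at most 0.675 CPM and 0.293 CPM. Such floors cover counting error only, as the reads carry no molecular identifiers.

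The second comparison asked how the mitochondrial genes stood when p21 was missing as well. In double mutants against WT, edgeR called 0 of the 25 genes higher and 0 lower (0.175% and 0.0169% of all genes tested), and DESeq2 also called 0 in either direction (3.74% and 1.12%). At an unadjusted p below 0.05, 2 of the 25 were higher, mt-Tq and mt-Te, and 0 lower (7.82% and 4.57% of all genes tested). The fitted changes were above 0 for the 25 (50.0% of all genes tested), with a median of 0.93, but for 0 of the 25 were the samples without overlap (4.52% of all genes tested were higher and 3.58% lower without overlap). The levels in the 4 double mutants ranged widely, and replicates 2 and 3 were the lowest and the highest for most genes. For mt-Tq they were 45.0, 13.2, 173 and 195 CPM in replicates 1, 2, 3 and 5, so that replicate 2 lay within the WT range and replicates 3 and 5 lay above 3 of the 4 Cnp-Cre Jab1fl/fl samples. Its log2 fold change against WT was 2.67 ± 0.98 (SE, edgeR adjusted p = 0.297). For mt-Te the levels were 3.08, 1.70, 11.2 and 7.21 CPM, with a log2 fold change of 2.02 ± 0.88 (SE, edgeR adjusted p = 0.380).

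Among the rRNA and protein genes, 4 of the 6 inside the chromosome 1 block had the largest fitted changes between double mutants and WT, all short of the threshold. The log2 fold change was 1.03 ± 0.49 (SE, edgeR adjusted p = 0.428) for mt-Co2, 0.97 ± 0.71 for mt-Atp8, 0.96 ± 0.50 for mt-Co3 and 0.93 ± 0.44 for mt-Atp6. That of mt-Rnr2 was 0.79 ± 0.55 (SE, edgeR adjusted p = 0.601), from levels that overlapped both other genotypes. For mt-Cytb and mt-Co1 it was 0.26 ± 0.39 and 0.24 ± 0.34 (SE, edgeR adjusted p = 0.827 and 0.819), small beside the error. The remaining genes of complex I and mt-Rnr1 lay between 0.18 for mt-Nd4l and 0.72 for mt-Nd6. Double mutant replicate 3, which had the highest microglial markers of the 12 samples, was also the highest of the 4 for mt-Cytb, at 11967 CPM beside 5143 to 7965 CPM. Without it, the log2 fold change of mt-Cytb was -0.02 and that of mt-Nd4l -0.20.

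Against Cnp-Cre Jab1fl/fl, the double mutants had lower fitted levels of all 25 genes, and none was called. By edgeR 0 of the 25 were called lower and 0 higher (0.0% of all genes tested in either direction), 0 had an unadjusted p below 0.05 (3.25% of all genes tested were lower and 1.75% higher by that measure), and DESeq2 called 0 (0.378% lower and 0.113% higher). The 25 fitted changes were all below 0 (48.7% of all genes tested were below and 51.3% above), with a median of -0.72, and the samples of 0 genes were without overlap (1.99% lower and 1.22% higher). The log2 fold change was -0.99 ± 0.50 (SE, edgeR adjusted p = 0.982) for mt-Rnr2, -0.83 ± 0.45 for mt-Cytb and -0.76 ± 0.42 for mt-Nd1. For the called tRNA genes it was -0.84 ± 0.46 for mt-Tp and -0.29 ± 0.71 for mt-Tq (SE, edgeR adjusted p above 0.99 for both), the latter small beside its error. The protein genes ranged from -0.89 (mt-Nd4l) to -0.59 with a median of -0.75, and the 10 tRNA genes from -1.02 (mt-Ti) to -0.07 with a median of -0.40. Both mt-Nd4l and mt-Ti reached 1 CPM in 3 Cnp-Cre Jab1fl/fl samples but only 1 double mutant. Their lower direction was therefore set in part by the filter, and counts, ranges and medians over the 25 are a description only. The comparisons share samples, the WT samples in the first and second and the mutant samples in the others, so that they are not independent of each other.

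Within the mitochondrial counts a few genes made up most of the total. Over the 12 samples, mt-Rnr2 held 29.3% of the counts of the 37 genes on average, mt-Cytb 22.3%, mt-Co1 14.7% and mt-Nd1 13.8%, together 80.1%. The share of mt-Rnr2 was 23.5% ± 7.93 in WT, 34.1% ± 4.49 in Cnp-Cre Jab1fl/fl and 30.3% ± 6.85 in double mutants (SD, n = 4 each), ranges that overlapped. The shares of the 2 most abundant mRNAs were lower in the mutants on average: mt-Cytb was 25.1% ± 3.34, 20.9% ± 2.03 and 20.9% ± 1.93, and mt-Co1 17.4% ± 4.87, 12.4% ± 2.24 and 14.3% ± 2.49 in the same order. Their ranges overlapped too. The share of mt-Nd1 was nearly even at 14.0% ± 1.01, 13.4% ± 1.11 and 13.9% ± 1.63. When each sample was scaled to its own mitochondrial total, the fitted log2 changes of the 10 tested tRNA genes in Cnp-Cre Jab1fl/fl against WT were 0.51 to 1.83, those of the 2 rRNA genes 0.09 and 0.54, and those of the 13 protein genes -0.48 (mt-Co1) to 0.56 (mt-Co3), with 5 of the 13 above 0. In double mutants against WT the same scale gave 0.32 to 2.26 for the tRNA genes, 0.06 and 0.37 for the rRNA genes and -0.41 to 0.55 for the protein genes, with 6 of the 13 above 0. Of the 10 tRNA genes, 6 passed the filter with no WT sample at 1 CPM, so that both tRNA ranges are a description only. In Cnp-Cre Jab1fl/fl against WT the others had 1.83 ± 0.66 (mt-Tq), 1.28 ± 0.90 (mt-Te), 0.76 ± 1.03 (mt-Tc) and 0.51 ± 0.54 (mt-Tp, SE for each).

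Ratios of genes that share a precursor or lie on opposite strands were compared without any library scaling. The ratio of mt-Rnr2 to mt-Nd1 counts, neighbours in the order of transcription around mt-Tl1, was 1.71 ± 0.682 in WT, 2.58 ± 0.532 in Cnp-Cre Jab1fl/fl and 2.24 ± 0.751 in double mutants (mean ± SD, n = 4 each). On the log2 scale Cnp-Cre Jab1fl/fl minus WT was 0.66 (two-sided exact permutation p = 0.143, adjusted over the 12 ratio tests 0.457). The ratio of mt-Rnr1 to mt-Rnr2 was 0.104, 0.0801 and 0.0887 on average in the same order, with Cnp-Cre Jab1fl/fl minus WT at -0.32 on the log2 scale (exact permutation p = 0.257, adjusted 0.457). The ratio of mt-Nd6 to mt-Nd5, genes of opposite strands, was 0.363, 0.465 and 0.428, with the same log2 difference at 0.41 (exact permutation p = 0.229, adjusted 0.457). Since reads of the strands cannot be told apart here, this ratio is not read as a balance between them. WT replicates 3 and 5 had the lowest values of mt-Rnr2 to mt-Nd1 and of mt-Nd6 to mt-Nd5 of all 12 samples.

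The ratio of mt-Cytb to mt-Nd1 varied least. It was 1.79 ± 0.136 in WT, 1.56 ± 0.102 in Cnp-Cre Jab1fl/fl and 1.51 ± 0.0887 in double mutants (mean ± SD, n = 4 each). The log2 difference from WT was -0.20 in Cnp-Cre Jab1fl/fl (exact permutation p = 0.0571) and -0.25 in double mutants, where all 4 samples were below all 4 WT samples (exact permutation p = 0.0286, the smallest that 70 relabelings can give). Adjusted over the 12 ratio tests, both gave 0.343, so that no ratio passed the threshold. The differences between double mutants and Cnp-Cre Jab1fl/fl were -0.24, 0.15, -0.12 and -0.05 on the log2 scale for the 4 ratios in the order given, with adjusted exact permutation p of 0.457 to 0.561.

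**Figure D4:**
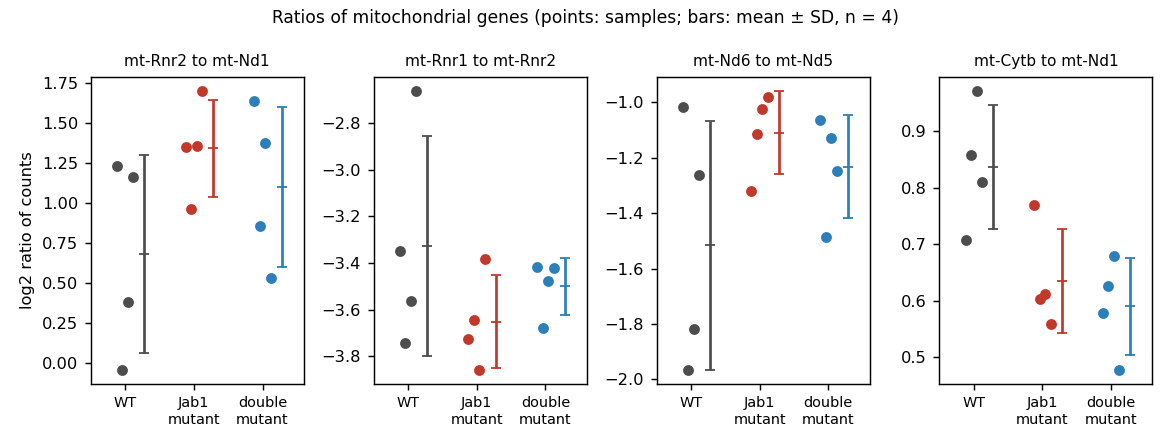
Log2 ratios of counts for 4 pairs of mitochondrial genes, with 1 point per sample and the mean ± SD of each genotype (n = 4) beside the points; each panel has its own axis. Jab1 mutant stands for Cnp-Cre Jab1fl/fl; the double mutants lie below all WT samples for mt-Cytb to mt-Nd1, and the genotypes overlap in the other 3 panels.

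The nuclear genes that serve mitochondrial DNA and its products were read from 6 lists in the same fits. The lists held 20 genes of transcription and DNA maintenance, 31 of RNA processing and turnover, 19 of translation and membrane insertion, 52 nuclear subunits of the respiratory chain, 22 regulators of biogenesis and mitophagy, and 78 proteins of the mitochondrial ribosome. By edgeR 0 genes of any list were called in any of the 3 comparisons. Over all genes tested, 5.19% and 2.46% were called higher and lower in Cnp-Cre Jab1fl/fl against WT. In double mutants it was 0.175% and 0.0169% against WT, and 0.0% in either direction against Cnp-Cre Jab1fl/fl. At an unadjusted p below 0.05, 9 list genes were higher and 4 lower in Cnp-Cre Jab1fl/fl against WT (13.2% and 9.3% of all genes tested). There DESeq2 called 4: Lars2 and Ndufa1 higher, and Sdha and Ppargc1a lower (9.52% and 5.66% of all genes tested). The median log2 fold change in that comparison was -0.39 for transcription and DNA maintenance, -0.09 for RNA processing, 0.10 for translation, 0.37 for the nuclear respiratory subunits, -0.23 for biogenesis and mitophagy, and 0.20 for the mitochondrial ribosome, beside 0.02 over all genes tested and 1.73 over the 25 tested mitochondrial genes. The counts of genes above 0 were 5 of 20, 12 of 31, 10 of 19, 39 of 52, 7 of 21 tested and 58 of 77 tested (51.0% of all genes tested). In double mutants against WT, 47 of 52 nuclear respiratory subunits and 65 of 77 mitochondrial ribosomal proteins were above 0 (50.0% of all genes tested), with medians of 0.43 and 0.33.

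**Figure D5:**
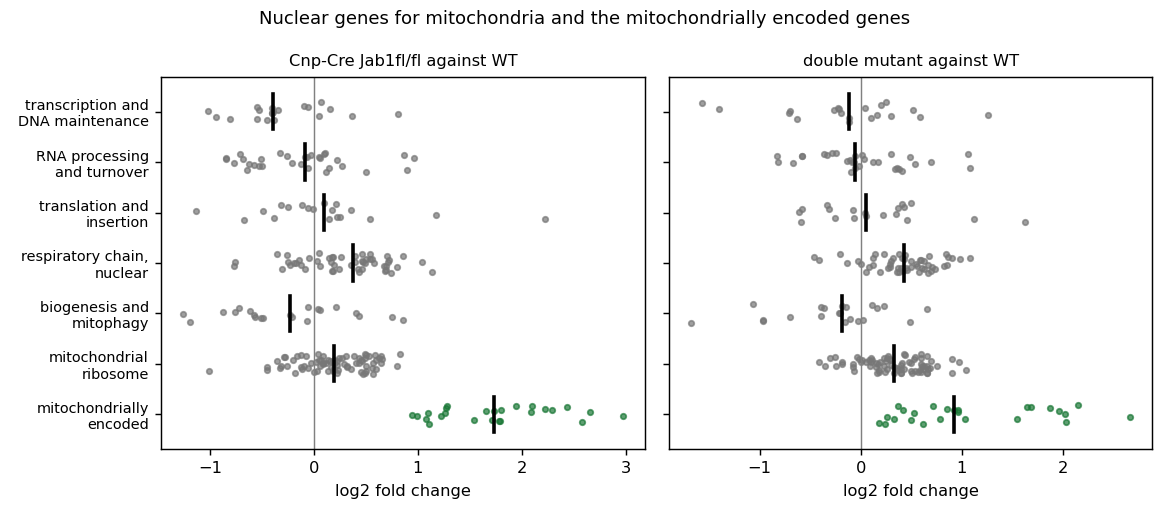
Fitted log2 fold change against WT of the tested genes of 6 nuclear lists (grey) and of the 25 tested mitochondrial genes (green), with 1 point per gene and a bar at the median, for Cnp-Cre Jab1fl/fl and double mutants. The nuclear medians lie between -0.39 and 0.43 and the mitochondrial medians at 1.73 and 0.93.

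The main factors of mitochondrial transcription and mRNA stability were all short of the threshold. Polrmt, the mitochondrial RNA polymerase, had a log2 fold change of -0.81 ± 0.44 (SE, edgeR adjusted p = 0.315) in Cnp-Cre Jab1fl/fl against WT, from 44.4 ± 20.9 to 25.4 ± 12.5 CPM (SD, n = 4 each). Tfam, which packs mitochondrial DNA and starts transcription, had -0.55 ± 0.44, and the elongation factor Tefm -0.35 ± 0.54 (SE, edgeR adjusted p = 0.515 and 0.766). Lrpprc and Slirp, partners that stabilise mitochondrial mRNAs, had -0.65 ± 0.31 and 0.05 ± 0.41 (SE, edgeR adjusted p = 0.240 and 0.963). In double mutants against WT the values were -0.71 for Polrmt, 0.20 for Tfam, -0.12 for Tefm, -0.06 for Lrpprc and 0.01 for Slirp, and against Cnp-Cre Jab1fl/fl 0.11, 0.76, 0.24, 0.60 and -0.02. Ppargc1a, a coactivator of mitochondrial biogenesis, had a mean of 89.1 CPM in WT, 39.1 CPM in Cnp-Cre Jab1fl/fl and 42.8 CPM in double mutants, log2 fold changes of -1.19 ± 0.39 (SE, edgeR adjusted p = 0.0892) and -1.07 ± 0.40 (SE, edgeR adjusted p = 0.301) against WT and 0.13 between the mutants.

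For each list, the pair with the smallest unadjusted p is given, and these pairs were mixed in direction in Cnp-Cre Jab1fl/fl against WT. Rrm2b, a subunit of ribonucleotide reductase, had a log2 fold change of -1.02 and the mitochondrial exonuclease Mgme1 -0.95 (edgeR adjusted p = 0.222 and 0.276). Trmt10c, a subunit of the enzyme that cuts the start of mitochondrial tRNAs, had 0.86 and the rRNA methyltransferase Nsun4 0.96 (edgeR adjusted p = 0.177 and 0.207). Lars2, which charges the leucine tRNA, had 1.18 and Aars2, which charges the alanine tRNA, -0.68 (edgeR adjusted p = 0.117 and 0.307). In the respiratory chain, Ndufa1 of complex I had 1.04 and Sdha of complex II -0.77 (edgeR adjusted p = 0.115 and 0.135). The fusion gene Mfn1 had -0.62, and the ribosomal proteins Mrpl48 and Mrpl38 had -1.01 and 0.60 (edgeR adjusted p = 0.228, 0.137 and 0.201). By edgeR 0 of these nuclear genes passed the threshold, and DESeq2 called Lars2, Ndufa1 and Sdha as given above.

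The same rule was applied to the other comparisons. In double mutants against WT they were Mgme1 with -1.41 and Ssbp1, which binds single-stranded DNA, with -0.63, Trmt10c with 1.08 and Fastkd5 with 1.06, Lars2 with 1.12 and Gfm2 with -0.61, Ndufa1 with 0.98 and Cox8a of complex IV with 0.90, Mfn2 with -0.97, and Mrpl17 with 0.90 and Mrpl52 with 1.04. Their edgeR adjusted p ranged from 0.225 to 0.473. Between double mutants and Cnp-Cre Jab1fl/fl they were Mterf1b (1.81), Primpol (-2.35), the tRNA-end nuclease Elac2 (0.88), Fastkd5 (1.14), Mtfmt (-1.10), Gfm2 (-0.82), Sdhc (0.58), Ndufa9 (0.59), Bnip3 (0.53), Gabpa (0.78), Mrpl2 (0.90) and Mrpl43 (0.80), as log2 fold changes with edgeR adjusted p of at least 0.902.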

How the data were processed

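Poly(A)-primed cDNA (SMART-Seq v4, a kit that does not mark strand) was sequenced from 12 sorted samples. The authors trimmed reads with Trimmomatic 0.32, aligned them with STAR 2.5.3a to GRCm38 and deposited whole-number counts per gene from featureCounts with a GENCODE basic annotation; the strand setting and the treatment of reads with several matches are not given in the sources used here. All 12 columns were matched to the labels. The counts were used as deposited. Gene positions, lengths and sequences came from GENCODE M21, to which 54402 of the 55376 entries matched once; nuclear copies were found with blastn 2.17.0. The mitochondrial genes, the gene lists and the tests were chosen with earlier results of these data known.

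Genes with at least 1 CPM (61.5 counts in the smallest library) in at least 4 of 12 samples were tested with edgeR 4.0.16 in R 4.3.3 (TMM, quasi-likelihood test without covariates, Benjamini-Hochberg adjustment over 17716 genes, threshold 0.05), on the 8 samples of each comparison; the procedure was checked on simulated counts. The 4 ratios were tested by exact permutation over 70 relabelings. DESeq2 1.42.0, other scalings, filters and sample sets, a replicate block and the omission of each sample were tried. A share of sequence-identical reads cannot be assigned, and PCR duplicates were not separable without molecular identifiers, so that precision follows the spread between samples. All mitochondrial genes are accounted for; both rRNA genes, the 13 protein genes and the 5 tRNA genes with the most counts are named with values, and from each nuclear list the called genes or, with none called, the 2 with the smallest unadjusted p, beside 6 main factors.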

Additional observations from a re-analysis of the deposited data

Results flagged for a closer look

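In groups of 4 samples, 1 sample stood apart from the other 3 in 5 of the 84 gene-by-genotype groups tested with Dixon's criterion, which by chance marks about 1 in 20 groups. Cnp-Cre Jab1fl/fl replicate 1 was high for mt-Co1, at 15180.1 CPM beside 5015 to 6431 CPM in the other 3 samples. The same sample was high for mt-Nd3, at 43.7 CPM beside 20.8 to 22.8 CPM, and for mt-Tc, at 6.95 CPM beside 1.59 to 2.31 CPM. It also held the highest erythroid markers, the highest endothelial markers and the highest mitochondrial share. The double mutant with the highest erythroid markers, replicate 2, had the lowest share of its genotype. Double mutant replicate 3 was high for mt-Nd4l, at 1.70 CPM beside 0.673 to 0.816 CPM, and WT replicate 3 was low for mt-Tp, at 4.94 CPM beside 14.5 to 15.8 CPM.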

How the results depend on the processing

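The count of 5 mitochondrial genes called higher in Cnp-Cre Jab1fl/fl against WT was 13 with DESeq2, 0 of 36 without a filter on low counts, 8 of 15 with a mean of at least 10 CPM and 1 when all 12 samples shared a fit. Leaving out single samples gave 0 to 10. It gave 0 without WT replicate 5 or Cnp-Cre Jab1fl/fl replicate 1, 3 or 4, 1 without WT replicate 1 or 6, 2 without WT replicate 3, and 10 without Cnp-Cre Jab1fl/fl replicate 2. Over all genes tested, 919 were called higher in the reported fit, 1687 with DESeq2, 581 of 36070 without the filter, 956 of 10466 with the higher filter, 644 in the shared fit and 504 to 1196 with single samples left out. The count of mitochondrial genes stayed at 5 with RLE factors, upper-quartile factors, library totals alone and factors from nuclear genes. The cause of these changes was not tested. Same-numbered samples had 8 correlations of -0.19 to 0.08, within the range of -0.24 to 0.33 of differently numbered ones, and were not treated as pairs. The labels do not say whether they shared a litter or day. The fit with the replicate number as a block called 5 in Cnp-Cre Jab1fl/fl against WT (mt-Rnr1, mt-Rnr2, mt-Tq, mt-Atp6 and mt-Co3) and 0 in the other comparisons. Only numbers 1 and 3 occur in both Cnp-Cre Jab1fl/fl and WT, so that these calls rest on replicates 1 and 3 of each. Over all genes tested, that fit called 420 higher and 240 lower. The log2 fold change between double mutants and WT ran from -0.20 to 0.34 for mt-Nd4l and from -0.019 to 0.42 for mt-Cytb when single samples were left out, lowest without double mutant replicate 3. Between double mutants and Cnp-Cre Jab1fl/fl it ran from -0.76 to 0.075 for mt-Tq, above 0 without Cnp-Cre Jab1fl/fl replicate 1 or double mutant replicate 2, and from -0.83 to 0.66 for mt-Tc, above 0 without Cnp-Cre Jab1fl/fl replicate 1 or double mutant replicate 1 or 2. The log2 ratio of mt-Rnr1 to mt-Rnr2 in double mutants against WT was 0.0045 as a difference of medians and -0.31 to 0.051 with single samples left out, above 0 without WT replicate 6. Differences in share kept their direction under every denominator and omission tried. Both settings that follow were chosen after seeing the data. With the matching nuclear genes added, Cnp-Cre Jab1fl/fl minus WT was 4.18 percentage points. Without the genes wholly or partly in the chromosome 1 block it was 3.49 percentage points. That setting also left out mt-Co1 and mt-Nd4, which held 14.7% and 6.05% of the mitochondrial counts on average. For 4 tRNA genes no sample passed 3 counts, and the cause was not tested.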
